A study of Mus musculus with 24 samples.

Results

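The 43 genes described here encode the proteins of the synaptic vesicle and of the machinery that docks, fuses and recycles it at the presynaptic terminal. They were listed by symbol, and a listed gene was kept if its row in the deposited expression table had a mean of at least 1 TPM (a transcript level that is corrected for gene length, with each library adding up to 1000000) over all 24 libraries. All 43 of the 43 listed genes met this rule, out of 36333 genes in the table. Each library came from 1 mouse, labelled as male, C57BL6N and 12 to 16 weeks old, whereas the methods name C57BL/6JRj mice with a narrower age range. Each held RNA of brain tissue at 5 dpi, taken at and around the lesion in the mice with TBI. TBI was induced by controlled cortical impact (CCI), in which a piston deforms the exposed cortex. Mice with TBI received vehicle (n = 5), PLX3397 in chow at 290 mg/kg from 90 min after CCI to 5 dpi (n = 5), Anakinra at 100 mg/kg subcutaneously at 5 min, 24 h, 48 h and 72 h (n = 5), or PLX3397+Anakinra by the same schedules (n = 5). PLX3397 inhibits CSF1R, the receptor that microglia need to survive, and Anakinra blocks the interleukin-1 receptor IL1R1. The sham group (n = 4) received vehicle after anesthesia and skin incision without craniotomy, so that vehicle and sham differ by the craniotomy as well as by the impact. All vehicle mice, and no other mice, carry the letter B in their animal number, so a batch behind that letter, if there is one, cannot be told apart from the treatment.

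A synaptic vesicle is filled with transmitter by a vesicular transporter, tethered to the active zone by Rab3 and scaffold proteins, and primed by Munc13 proteins. The SNARE proteins Snap25, syntaxin and synaptobrevin then pull vesicle and plasma membrane together, and synaptotagmins trigger fusion when calcium enters. Complexins hold and promote the assembled SNARE complex, Nsf takes it apart again, and dynamin, amphiphysin and endophilin retrieve the membrane. These transcripts are made in the cell bodies of neurons, while most presynaptic proteins act far away in the axon terminal.

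The labels name cortex as the tissue, whereas by the methods the upper quadrant that was taken also held thalamus, dorsal hippocampus and striatum. Markers of all of these regions were present in every library. The 12 cortical pyramidal neuron markers summed to 1137 to 1168 TPM in sham and 634.7 to 769 TPM in vehicle, and the 10 striatal neuron markers to 1703 to 1979 TPM in sham and 1495 to 2260 TPM in vehicle. The 14 microglia and macrophage markers summed to 592.2 to 622.8 TPM in sham, 4957 to 7786 TPM in vehicle, 2490 to 4151 TPM with PLX3397, 5102 to 6342 TPM with Anakinra and 1752 to 2302 TPM with PLX3397+Anakinra. None of these markers was at 0 in any library. In bulk tissue, fewer neurons and less RNA per neuron cannot be told apart, and in TPM a gain of glial transcripts lowers the share left for neuronal ones.

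Promoter windows are shown because most of the 43 genes moved together after injury while a few did not. The windows hold the 250 bases before the start of transcription and come from RefSeq, where 33 of the 43 genes had an entry. Those without were Syn3, Syt4, Syt5, Syt7, Snap25, Vamp2, Syngr3, Rims2, Doc2a and Doc2b. Syn1 and Sh3gl2 are the members whose window held the cAMP response element TGACGTCA, Rims3 had the largest fall after injury, and Sv2c had the smallest difference. Capitals mark the cAMP response element, the GC box GGGCGG and TTCAGCACC, the left part of the RE1 element, each searched on both strands.
Syn1 (GRCm38.p6, chrX:20920919-20921168, minus strand): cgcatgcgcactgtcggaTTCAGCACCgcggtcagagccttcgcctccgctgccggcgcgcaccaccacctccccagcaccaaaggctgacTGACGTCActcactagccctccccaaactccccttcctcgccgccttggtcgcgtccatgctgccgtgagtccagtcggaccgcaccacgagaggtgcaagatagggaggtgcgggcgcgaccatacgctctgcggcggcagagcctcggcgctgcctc
Sh3gl2 (GRCm38.p6, chr4:85205206-85205455, plus strand): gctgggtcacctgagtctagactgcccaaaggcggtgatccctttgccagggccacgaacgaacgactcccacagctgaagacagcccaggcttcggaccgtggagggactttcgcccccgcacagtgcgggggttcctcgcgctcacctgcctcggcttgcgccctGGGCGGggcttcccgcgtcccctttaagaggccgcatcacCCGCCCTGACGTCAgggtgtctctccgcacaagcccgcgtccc
Rims3 (GRCm38.p6, chr4:120854549-120854798, plus strand): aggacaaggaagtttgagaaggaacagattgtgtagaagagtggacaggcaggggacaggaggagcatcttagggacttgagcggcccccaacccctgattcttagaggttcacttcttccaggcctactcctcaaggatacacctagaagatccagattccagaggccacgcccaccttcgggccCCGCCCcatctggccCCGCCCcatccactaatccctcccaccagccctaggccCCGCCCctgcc
Sv2c (GRCm38.p6, chr13:96132578-96132827, minus strand): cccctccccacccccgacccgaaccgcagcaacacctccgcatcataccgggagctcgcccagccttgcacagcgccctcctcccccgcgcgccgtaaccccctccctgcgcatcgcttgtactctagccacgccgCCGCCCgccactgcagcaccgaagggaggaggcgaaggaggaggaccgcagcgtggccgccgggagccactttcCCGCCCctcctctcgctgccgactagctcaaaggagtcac
The GC box was found in 21 of the 33 genes (63.6%), in 59.0% of the 12771 genes tested for expression that had a window and in 35.4% of all 27025 genes with one. The cAMP response element was found in 2 of the 33 (6.06%), in 2.81% of the tested genes and in 1.77% of all genes. TTCAGCACC was found in Syn1 alone among the 33 (3.03%), against 0.399% of the tested genes and 0.348% of all genes. The GC box stood in the window of Rims3 and in that of Sv2c. A match is a string of letters and no evidence that a factor binds there.

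The first comparison asked how TBI alone altered the vesicle genes. In vehicle mice 40 of the 43 were lower than in sham by limma's test on log2(TPM + 1), with Benjamini-Hochberg adjustment over 17267 genes, and none was higher. Over all genes tested 27.7% were lower and 26.6% were higher. The median log2 difference of the 43 genes was -0.56, with a range from -0.92 to 0.00, against -0.01 over all genes tested. In 36 of the 43 every vehicle mouse lay below every sham mouse, which was so for 21% of all genes tested. The summed level of the 43 genes was 17880 ± 268 TPM (SD, n = 4) in sham and 11680 ± 877 TPM (SD, n = 5) in vehicle. Sv2c, Doc2b and Cplx3 did not pass the test.

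**Figure D1:**
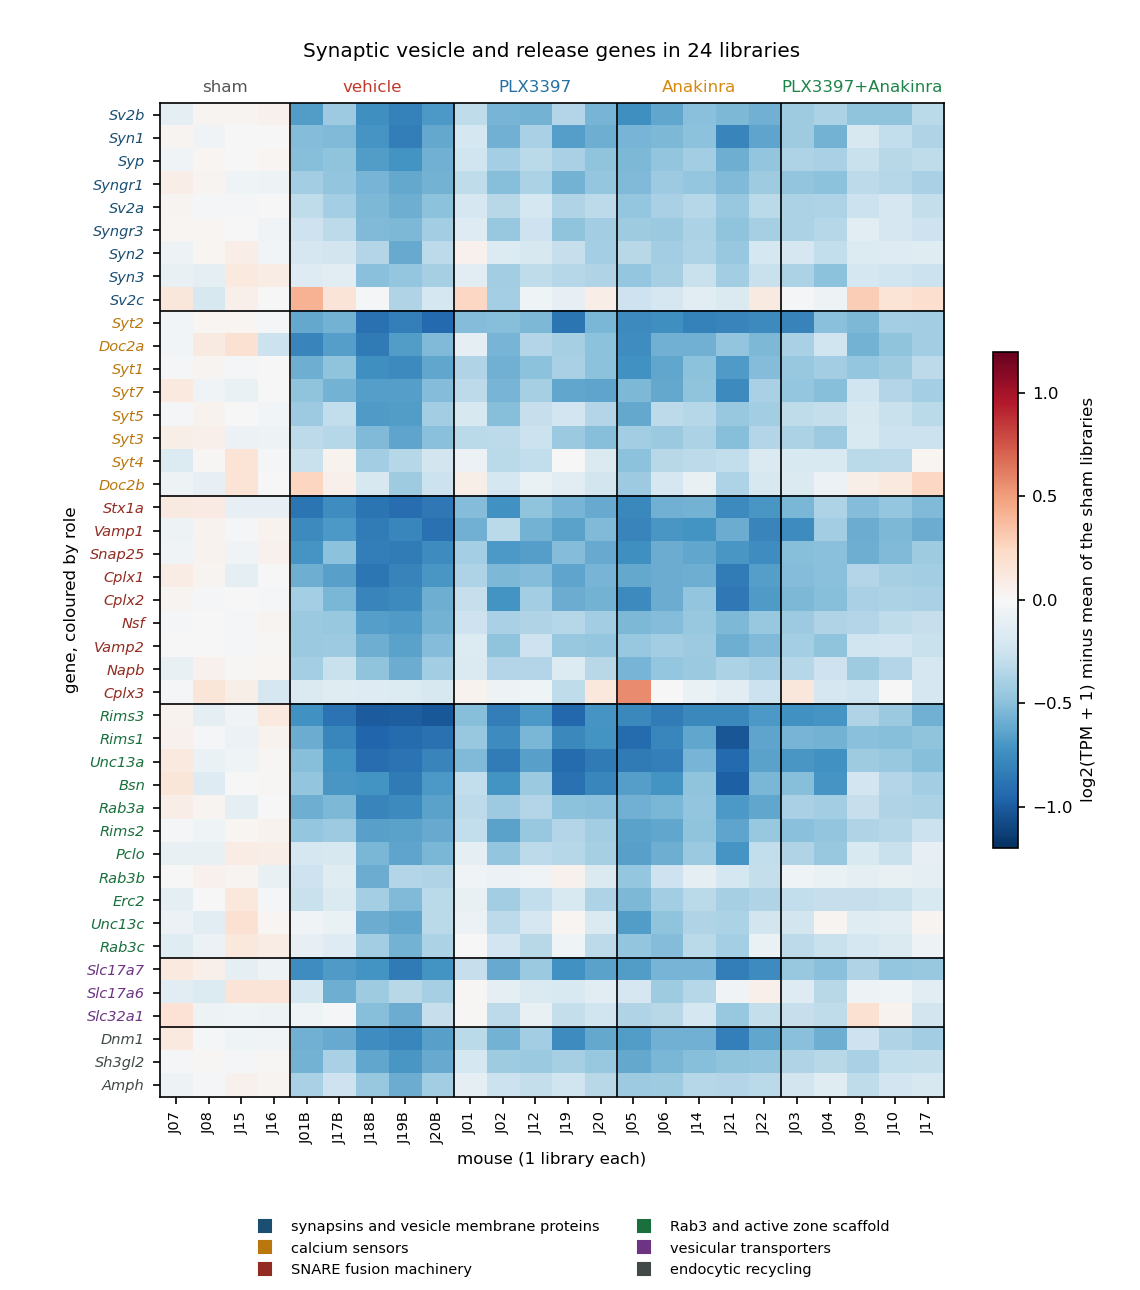
Rows are the 43 genes, grouped and coloured by role, and columns are the 24 mice with 1 library each. Colour gives log2(TPM + 1) minus the mean of the 4 sham libraries. Most rows are blue in all 20 mice with TBI, darkest on average in vehicle J18B and J19B. Vehicle J01B and J17B are paler on average than every Anakinra mouse. Sv2c, Doc2b and Cplx3 stand out as rows with less blue.

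Among the synapsins and vesicle membrane proteins 8 of 9 fell. Syp, which encodes synaptophysin, a major membrane protein of the vesicle, had the smallest p of this role. It measured 1548, 1625, 1598 and 1624 TPM in the sham mice and 1123, 1146, 1006, 972.3 and 1074 TPM in the vehicle mice. The groups were far apart, and the fall was 33.4% (log2 difference -0.59 ± 0.05 SE, adjusted p = 6.59e-10). Syn1, whose product ties vesicles to the actin of the reserve pool, went from 528 ± 12.2 TPM to 339.7 ± 30.2 TPM (log2 difference -0.64, adjusted p = 5.2e-07). Its relatives fell by less in the fit, with log2 differences of -0.34 for Syn2 and -0.33 for Syn3. Sv2b had the largest fall of the role (-0.67), and Sv2a had -0.47.

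Sv2c encodes the SV2 protein that is most prominent in the basal ganglia. It measured 33.41, 26.33, 31.71 and 30.18 TPM in sham and 40.73, 33.94, 29.93, 23.36 and 25.99 TPM in vehicle. Vehicle mice lay on both sides of the sham range, and the difference was 0.00 (95% confidence interval -0.27 to 0.26, adjusted p = 0.985). The striatal markers, summed, were 2260 and 2143 TPM in the vehicle mice with the 2 highest Sv2c values, J01B and J17B, 1526 TPM in J19B, which had the lowest, 1495 TPM in J18B and 1978 TPM in J20B. Whether the share of striatum in the sample had a part in this was not tested.

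Of the 8 calcium sensors 7 fell. Syt1, the main sensor of fast release in forebrain neurons, measured 989.2, 1021, 994.1 and 998.9 TPM in sham and 664.7, 716.1, 600.4, 590.3 and 647.5 TPM in vehicle. Every vehicle mouse was below every sham mouse, and the fall was 35.7% (log2 difference -0.64 ± 0.06 SE, adjusted p = 8.62e-10). Syt2, the fast sensor of brainstem and of some inhibitory neurons, had the largest fall of the role, from 43.7 ± 0.853 TPM to 25.4 ± 3.08 TPM (log2 difference -0.77, adjusted p = 2.26e-08). Syt7, a slow sensor with high calcium affinity, had -0.58, and Doc2a, a sensor of spontaneous and asynchronous release, had -0.70. Syt4, a synaptotagmin of secretory granules, had the smallest difference that passed the test (-0.24, adjusted p = 0.0225), and its groups overlapped. Doc2b averaged 29.1 ± 2.47 TPM in sham and 27.2 ± 5.39 TPM in vehicle (adjusted p = 0.396), and its interval reached from -0.33 to 0.11.

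The SNARE proteins and their helpers gave the smallest p of all 43 genes. Stx1a, a plasma membrane syntaxin, measured 303, 301.7, 262.9 and 263.1 TPM in sham and 153.4, 167.8, 153.2, 149.6 and 155.5 TPM in vehicle. The vehicle mice were close to each other and well below sham, and the fall was 44.9% (log2 difference -0.85 ± 0.06 SE, adjusted p = 7.13e-12). Vamp1 encodes a synaptobrevin used mostly in spinal cord, brainstem and fast-spiking neurons, and measured 235.5, 253.8, 241.6 and 253.2 TPM in sham. In vehicle it measured 144.1, 151.7, 136.9, 142.1 and 131.8 TPM, again without overlap (log2 difference -0.80 ± 0.06 SE, adjusted p = 6.8e-11). Vamp2, the main synaptobrevin of the forebrain, fell by less, from 1318 ± 14.4 TPM to 916.5 ± 55.6 TPM (-0.53). Snap25, the most abundant transcript of the 43, went from 2868 ± 107 TPM to 1739 ± 177 TPM (-0.73).

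Nsf, the ATPase that recycles SNARE complexes, measured 778.3, 789.6, 779.6 and 810.1 TPM in sham and 580.2, 577.1, 497.8, 492.2 and 530.7 TPM in vehicle. The groups did not overlap, and the fall was 32.2% (adjusted p = 4.14e-10). Among the complexins Cplx1 (-0.72) and Cplx2 (-0.62) fell. Cplx3, a complexin of the retina and of deep cortical neurons, measured 18.78, 21.12, 19.92 and 16.32 TPM in sham and 16.66, 17.08, 16.94, 16.76 and 16.48 TPM in vehicle. 1 sham mouse was below all vehicle mice, and the difference of -0.17 (interval -0.41 to 0.08) did not pass the test (adjusted p = 0.246).

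All 11 genes of Rab3 and the active zone scaffold fell. Rab3a, the main vesicle GTPase of this family, measured 1057, 1025, 924.5 and 998.9 TPM in sham and 667.8, 689.2, 577.2, 590 and 638.7 TPM in vehicle. The fall was 36.8% without overlap (log2 difference -0.66 ± 0.06 SE, adjusted p = 3.8e-10). Rims3, a short member of the RIM family, had the largest difference of the 43 genes, with 182.2, 164.1, 172.1 and 192.7 TPM in sham and 106.8, 95.65, 88.49, 88.98 and 87.34 TPM in vehicle. The lowest sham mouse was thus above the highest vehicle mouse, and the fall was 47.4% (log2 difference -0.92 ± 0.08 SE, adjusted p = 4.46e-10). Rims1, which links Rab3 to calcium channels, had -0.83, and Unc13a, the main priming factor of excitatory synapses, had -0.76. The large scaffold proteins Bsn and Pclo had -0.69 and -0.42. Rab3b, Rab3c, Erc2 and Unc13c formed the low end of the role, between -0.34 and -0.32.

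The 3 vesicular transporters mark which transmitter a neuron releases, and all 3 fell by different amounts. Slc17a7 (VGLUT1), the glutamate transporter of cortical and hippocampal neurons, measured 1252, 1205, 1067 and 1103 TPM in sham and 689.4, 719, 702.4, 640.8 and 699.8 TPM in vehicle. The groups were clearly separate, with a fall of 40.3% (log2 difference -0.74 ± 0.07 SE, adjusted p = 4.67e-09). Slc17a6 (VGLUT2), the glutamate transporter of thalamic neurons, measured 64.62, 63.67, 79.24 and 79.27 TPM in sham and 61.52, 47.16, 52.85, 56.38 and 53.98 TPM in vehicle. The gap between the groups was narrow, and the fall was 24.2% (log2 difference -0.39 ± 0.09 SE, adjusted p = 0.000799). Slc32a1 (VGAT), the transporter for GABA and glycine, measured 205.7, 175.4, 176.5 and 174.7 TPM in sham and 175.7, 179.1, 127.5, 120.3 and 150.2 TPM in vehicle. In vehicle J01B and J17B were at the sham level and the other mice were below it, and the fall of 17.8% passed the test (adjusted p = 0.0241) with overlap.

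Of the endocytic genes all 3 fell. Sh3gl2 (endophilin A1) measured 369.2, 378.3, 371 and 377.8 TPM in sham and 252.1, 285.2, 241.8, 229.7 and 245.6 TPM in vehicle. The groups were separate and the fall was 32.9% (adjusted p = 1.22e-09). Dnm1, the neuronal dynamin that cuts vesicles from the membrane, had -0.67, and Amph, which recruits dynamin, had -0.42.

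**Figure D2:**
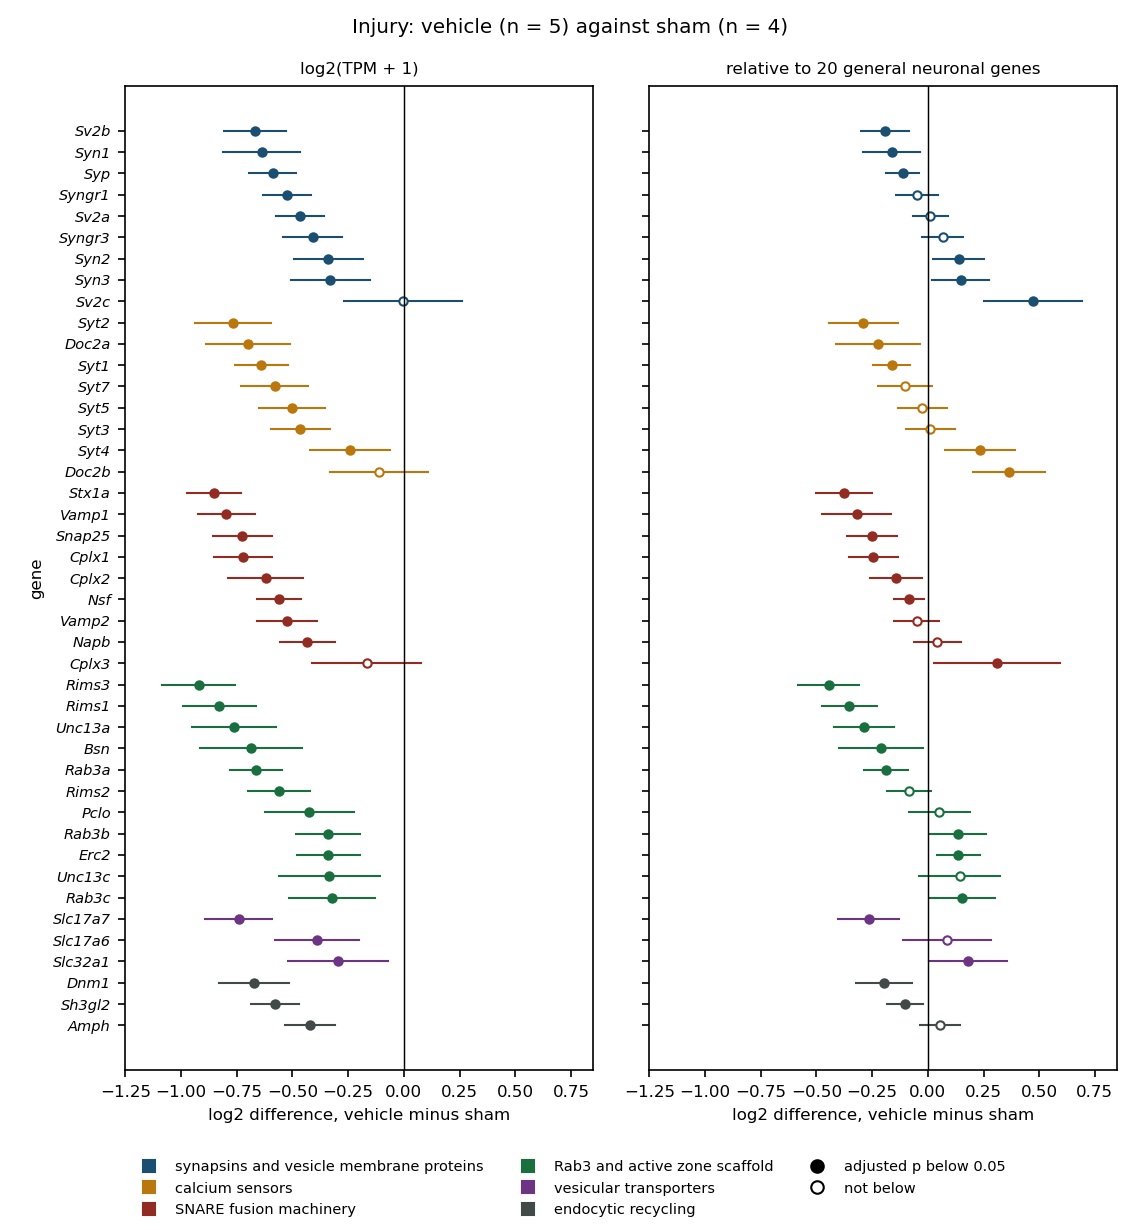
Points give the log2 difference of vehicle (n = 5) minus sham (n = 4) for each gene, with 95% confidence intervals, and filled points passed an adjusted p of 0.05. On the left, log2(TPM + 1) as tested, all points lie at or below 0 and 40 of 43 are filled. On the right, after subtraction of the mean of 20 general neuronal genes in the same library, 20 genes are lower and 10 are higher.

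The vesicle genes were also set against general neuronal genes. Of 20 general neuronal genes, such as those for neurofilaments and neuronal tubulin, 19 were lower in vehicle, with a median of -0.43. When values were taken relative to the mean of these 20 genes in the same library, the median of all genes tested moved from -0.01 to 0.46 and that of the 43 genes from -0.56 to -0.09. On this scale 20 of the 43 were lower and 10 were higher, whereas 2.11% of all genes tested were lower and 82.1% were higher. The lower genes held Rims3 (-0.45), Stx1a (-0.38), Rims1 (-0.35), Vamp1 (-0.32), Syt2 (-0.29) and Slc17a7 (-0.27). The higher genes were Sv2c (0.47), Doc2b (0.36), Cplx3 (0.31), Syt4 (0.23), Slc32a1 (0.18), Rab3c (0.15), Syn3 (0.15), Syn2 (0.14), Erc2 (0.14) and Rab3b (0.14). Syn2, Syn3, Syt4, Rab3b, Rab3c, Erc2 and Slc32a1 thus changed sign with the scale, being lower in TPM and higher relative to neuronal genes, while Slc17a6 went from -0.39 to 0.086 and did not pass on the neuronal scale. Doc2b and Cplx3 had estimates below 0 on log2(TPM + 1) without passing, and Sv2c had one of 0.00 (mean 30.4 TPM in sham and 30.8 TPM in vehicle).

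A ratio of genes within a library does not depend on the reference. Pairs were formed within gene families, and the 3 vesicular transporters were taken as a group, although Slc32a1 is of another family than Slc17a7. Each gene was set against the most abundant gene of its family or group in sham. In 18 of 21 pairs this percentage was larger in vehicle than in sham, as a mean over mice. Sv2c was 6.6% ± 0.582 of Sv2a in sham and 9.15% ± 1.36 in vehicle. Cplx3 was 1.84% ± 0.237 of Cplx1 in sham and 2.68% ± 0.229 in vehicle. Slc32a1 was 15.8% ± 0.908 of Slc17a7 in sham and 21.8% ± 3.38 in vehicle. The exceptions were Syt2 per Syt1, Vamp1 per Vamp2 and Sv2b per Sv2a, where the ratio was smaller in vehicle. For example, Vamp1 was 18.7% ± 0.585 of Vamp2 in sham and 15.4% ± 0.93 in vehicle. Several pairs share the same most abundant gene, such as Syt1, so the pairs are not separate observations. Among the 18, mice of the groups overlapped for Cplx2, Doc2b, Rab3c, Rims1, Slc17a6, Syngr3 and Syt7. Syt7 ran from 16.93% to 19.6% of Syt1 in sham and from 16.78% to 19.14% in vehicle. Among the exceptions Sv2b per Sv2a overlapped. These ratios are a description and were not tested.

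**Figure D3:**
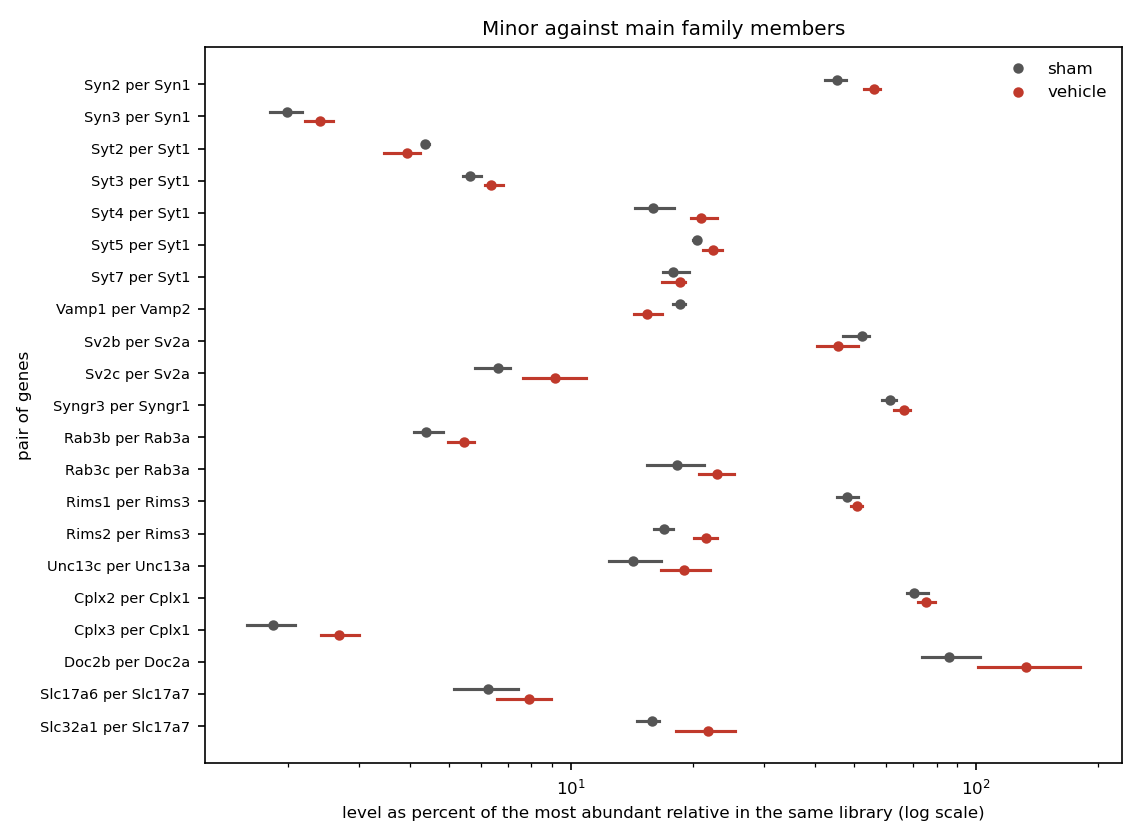
Each row is a pair of genes of a family or, for Slc17a6, Slc32a1 and Slc17a7, of the transporter group. The x axis, on a log scale, gives the level of the first as a percentage of the second in the same library. Points are means and lines run from the lowest to the highest mouse (sham n = 4, vehicle n = 5). The vehicle point lies to the right of the sham point in 18 of 21 pairs.

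The wider presynaptic set moved less evenly. Of 60 other presynaptic genes 59 were tested (Cplx4 was too low), 44 were lower and 3 were higher in vehicle, with a median of -0.37. The largest fall was that of Rph3a (-0.97), which encodes the Rab3 effector rabphilin. The 3 that rose were Syngr2 (1.38), Sypl (0.40) and Sh3gl1 (0.21), which are relatives of vesicle genes with broad expression outside neurons. Syngr2 went from 19.8 ± 1.2 TPM to 53.4 ± 7.31 TPM, while its neuronal relatives Syngr1 and Syngr3 fell (-0.53 and -0.41).

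Markers of other cells moved with these changes. In vehicle all 14 microglia and macrophage markers were higher than in sham (median 2.63), as were 8 of 8 astrocyte, 6 of 8 oligodendrocyte, 5 of 7 endothelial and 6 of 7 fibroblast and meningeal markers, and 0 of 5 red blood cell markers passed the test. Among neurons, 9 of 12 cortical pyramidal markers (median -0.70), 6 of 10 thalamic (-0.38), 6 of 10 hippocampal (-0.41) and 7 of 10 inhibitory neuron markers (-0.44) were lower. None of 10 striatal neuron markers passed limma's test in either direction (median 0.03). The part of these shifts in the falls of the vesicle genes was not tested.

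The next comparisons asked whether the drugs altered the vesicle genes after TBI, each against the same 5 vehicle mice. With PLX3397, 14 of the 43 genes were higher than in vehicle and none was lower, where 3.23% of all genes tested were higher. The median log2 difference was 0.16, against 0.01 over all genes. Without 1 mouse the 14 became 6 (PLX3397 J01), 7 (vehicle J18B), 7 (vehicle J19B) or 9 (vehicle J20B). In 5 of the 43, namely Stx1a, Vamp1, Nsf, Rab3a and Slc17a6, every PLX3397 mouse lay above every vehicle mouse (1.98% of all genes). With PLX3397+Anakinra, 22 were higher and none was lower, where 7.88% of all genes were higher, and the median was 0.21. Here 9 of the 43 did not overlap (4.09% of all genes). With Anakinra alone limma's test called 0 of the 43 in either direction, where 0.0695% of all genes were higher. An unadjusted p below 0.05 was found for 2 of the 43 and for 2148 of the 17267 genes tested. The median with Anakinra was 0.04.

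**Figure D4:**
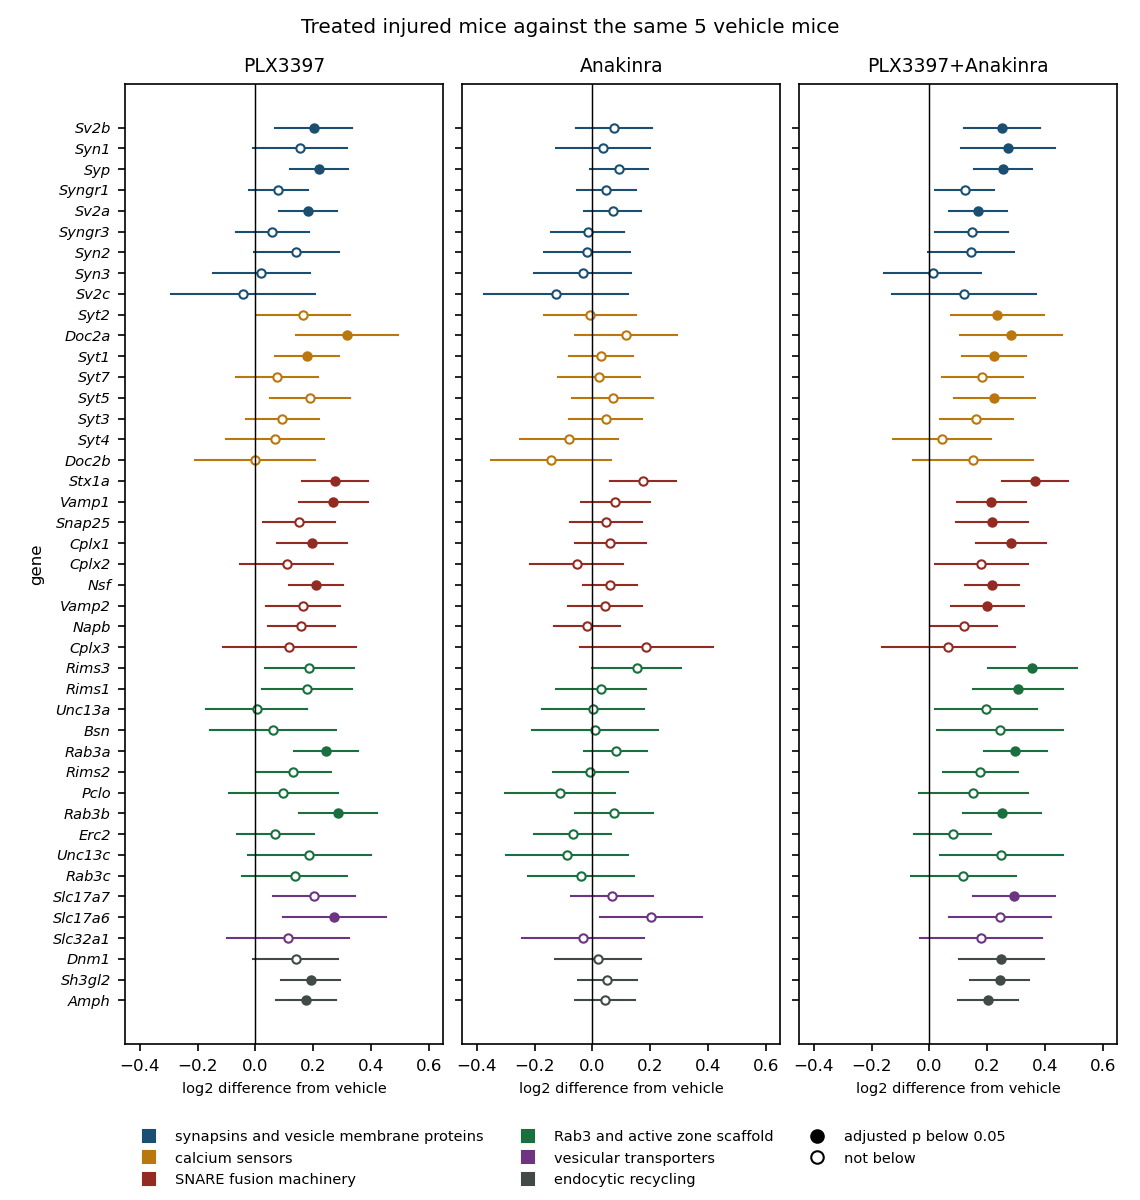
Points give the log2 difference from vehicle for each gene with 95% confidence intervals, in 3 panels for PLX3397, Anakinra and PLX3397+Anakinra (n = 5 each), and filled points passed an adjusted p of 0.05. Filled points number 14, 0 and 22, all to the right of 0. The panels share their vehicle mice.

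Stx1a had the smallest p in each of the 3 drug comparisons. It measured 196.8, 169.8, 201.5, 191.5 and 185.7 TPM with PLX3397, 164.8, 189, 189.8, 165.2 and 173.4 TPM with Anakinra, and 192, 218, 196.8, 204 and 195.1 TPM with PLX3397+Anakinra. All PLX3397 and all PLX3397+Anakinra mice were above the highest vehicle mouse at 167.8 TPM, and all were below the lowest sham mouse. The rise was 0.28 with PLX3397 (adjusted p = 0.0013) and 0.37 with PLX3397+Anakinra (adjusted p = 2.47e-05) on the log2 scale. With Anakinra the difference of 0.18 (interval 0.06 to 0.29) did not pass the test (adjusted p = 0.167), and 2 of the 5 mice lay below that highest vehicle mouse.

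Among the vesicle membrane proteins Syp rose with both PLX3397 arms. It measured 1350, 1204, 1276, 1219 and 1145 TPM with PLX3397 and 1239, 1218, 1328, 1267 and 1292 TPM with PLX3397+Anakinra, with 1 PLX3397 mouse just under the highest vehicle mouse. The log2 differences from vehicle were 0.22 (adjusted p = 0.00371) and 0.26 (adjusted p = 0.000483), and with Anakinra the 5 mice lay between 1065 and 1200 TPM. Sv2a and Sv2b rose in both arms as well, and Syn1 rose with PLX3397+Anakinra (0.27, adjusted p = 0.0177). For Syn1 the difference with PLX3397 alone was 0.15 (adjusted p = 0.25).

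Of the calcium sensors Syt1 and Doc2a rose with PLX3397, and Syt1, Syt2, Syt5 and Doc2a with PLX3397+Anakinra. Syt1 measured 781, 671, 709.3, 763.5 and 711.6 TPM with PLX3397 and 729.4, 747.4, 726.5, 746.5 and 803.9 TPM with PLX3397+Anakinra. The combination mice were all above the highest vehicle mouse at 716.1 TPM, and the differences were 0.18 (adjusted p = 0.0352) and 0.22 (adjusted p = 0.00447). Doc2a had 0.32 and 0.28 in these arms.

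Further SNARE genes rose in both arms. Nsf measured 662.9, 604, 615.2, 621.2 and 590.7 TPM with PLX3397 and 585.1, 615.3, 620.4, 639.5 and 650.5 TPM with PLX3397+Anakinra. All 10 mice were above the vehicle group, whose highest value was 580.2 TPM, with differences of 0.21 (adjusted p = 0.00282) and 0.22 (adjusted p = 0.00119). Vamp1 measured 165, 196.5, 165.7, 157.6 and 169.5 TPM with PLX3397, all above vehicle, and rose by 0.27 (adjusted p = 0.00283). With PLX3397+Anakinra it measured 145.1, 183.4, 162.7, 168.5 and 162 TPM and rose by 0.21 (adjusted p = 0.0116). Cplx1 rose in both arms (0.20 and 0.28), and Snap25 (0.22) and Vamp2 (0.20) rose with PLX3397+Anakinra.

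At the active zone Rab3a measured 805.5, 737.1, 784.6, 710.9 and 706.5 TPM with PLX3397 and 763.4, 746.7, 822.9, 779.1 and 770 TPM with PLX3397+Anakinra. Every mouse of both arms was above the highest vehicle mouse at 689.2 TPM, and the differences were 0.24 (adjusted p = 0.0031) and 0.30 (adjusted p = 0.000228). Rab3b rose in both arms too, by 0.29 and 0.25. Rims3 measured 123.9, 99.7, 109.9, 91.86 and 108.1 TPM with PLX3397 and 103.4, 98.91, 103.6, 103.2 and 109.9 TPM with Anakinra, and neither difference from vehicle passed the test (adjusted p = 0.124 and 0.401). With PLX3397+Anakinra it measured 106.7, 108, 138, 129.7 and 118.5 TPM and rose by 0.36 (adjusted p = 0.00131). Rims1 rose with the combination as well (0.31). Unc13a stood at 121.4 ± 14.4 TPM in vehicle, 121.7 ± 13.9 TPM with PLX3397 and 139.1 ± 13.4 TPM with PLX3397+Anakinra, and did not pass in either arm.

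Of the transporters Slc17a6 passed with PLX3397 and Slc17a7 with PLX3397+Anakinra, and no difference between these arms passed. Slc17a7 measured 953.9, 760.5, 845.6, 695 and 736.9 TPM with PLX3397, where the difference of 0.20 missed the threshold (adjusted p = 0.0631). With PLX3397+Anakinra it measured 842.9, 812.9, 895.9, 835.8 and 840.4 TPM, all above vehicle, and rose by 0.29 (adjusted p = 0.0037). Slc17a6 measured 72.23, 65.91, 63.32, 62.52 and 64.87 TPM with PLX3397 and rose by 0.27 (adjusted p = 0.0429). It measured 63.99, 56.25, 68.53, 68.57 and 65.33 TPM with PLX3397+Anakinra, where 0.24 missed the threshold (adjusted p = 0.0504), and 61.84, 52.85, 56.18, 69.41 and 74.64 TPM with Anakinra (0.20, adjusted p = 0.323). The call of Slc17a6 with PLX3397 was lost without a filter on low values, without the variance trend and relative to neuronal genes. Those of Syt1 and Sv2b with PLX3397 were lost in the same settings and with only the groups compared. That of Cplx1 was lost without a filter, with median-ratio scaling, with only the groups compared and relative to neuronal genes. With only the groups compared the PLX3397 calls of Amph, Doc2a, Sh3gl2, Sv2a and Syp were lost too. With PLX3397+Anakinra Slc17a6 was called under a stricter filter, median-ratio scaling, a fit of only the groups compared and the replicate block. In that arm the calls of Syt2 and Vamp2 were lost without a filter. Those of Snap25, Sv2a and Syt2 were lost with only the groups compared, where Syt7 was gained. Slc32a1 passed in none of the 3 arms, with differences of 0.11, -0.03 and 0.18. Its values ran from 146.8 to 184.4 TPM with PLX3397, from 132.8 to 157.4 TPM with Anakinra and from 147.6 to 207 TPM with PLX3397+Anakinra.

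Of the endocytic genes Sh3gl2 and Amph rose with PLX3397 and all 3 rose with PLX3397+Anakinra. Sh3gl2 measured 323.5, 278.5, 273.7, 284.2 and 271.9 TPM with PLX3397 and 291.6, 296.6, 284.5, 304.1 and 306 TPM with PLX3397+Anakinra. The highest vehicle mouse, at 285.2 TPM, overlapped with both arms, and the differences were 0.19 (adjusted p = 0.0131) and 0.24 (adjusted p = 0.000966). Sv2c and Cplx3, which had not passed in the injury comparison, passed in no drug comparison either. Cplx3 measured 28.61, 18.97, 17.87, 17.23 and 15.7 TPM with Anakinra, where J05 alone stood far above the other mice.

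**Figure D5:**
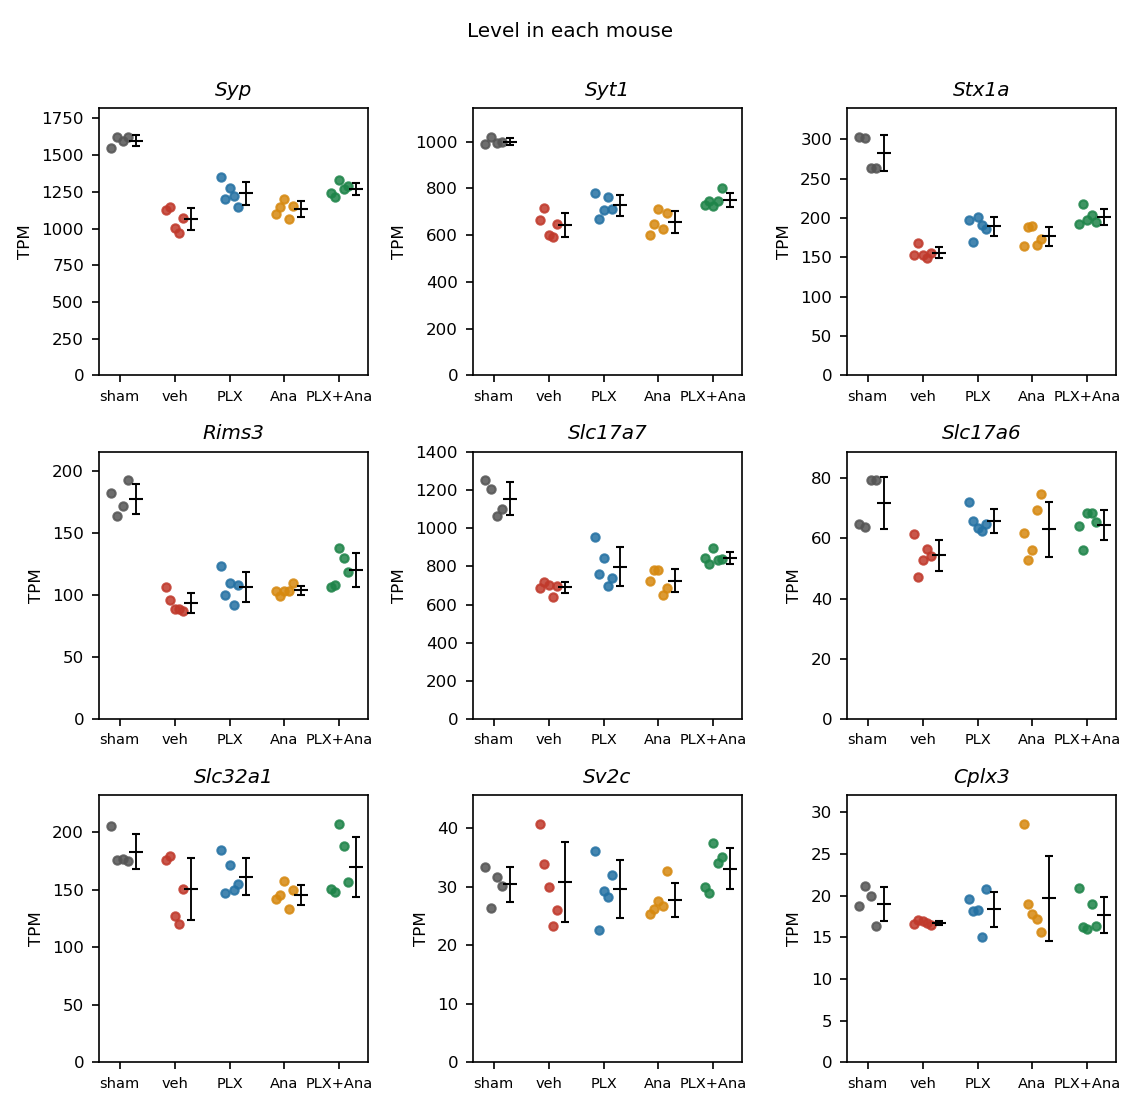
Points are single mice and bars are the mean ± SD in TPM, on axes that start at 0, for 9 genes in sham (n = 4) and the 4 TBI groups (n = 5 each; veh is vehicle, PLX is PLX3397, Ana is Anakinra). Stx1a in the PLX3397 and PLX3397+Anakinra mice lies above vehicle and below sham, and Sv2c and Cplx3 show no separation of the groups.

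All 3 drug-treated groups remained below sham for most of the genes. Against sham 34 of the 43 were lower with PLX3397 (22.5% of all genes tested), 40 with Anakinra (29.2%) and 34 with PLX3397+Anakinra (18.1%), and none was higher. The medians were -0.37, -0.50 and -0.33. Sv2c, Syt4, Doc2b, Cplx3, Rab3b, Rab3c, Unc13c, Slc17a6 and Slc32a1 were the 9 that did not pass against sham with PLX3397, and the same 9 did not pass with PLX3397+Anakinra. With Anakinra all 8 calcium sensors were lower than in sham. Doc2b, which had not passed in vehicle, was thus called there (29.1 ± 2.47 TPM in sham and 24.2 ± 2.46 TPM with Anakinra). These comparisons share the 4 sham mice.

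The treated groups were also compared directly. Against Anakinra 15 of the 43 were higher with PLX3397+Anakinra, led by Rab3a (0.22, adjusted p = 0.00667) and Sh3gl2 (0.19, adjusted p = 0.0102), where 4.67% of all genes were higher. Without 1 mouse the 15 became 2 (Anakinra J21), 3 (Anakinra J05), 5 (PLX3397+Anakinra J17), 7 (PLX3397+Anakinra J10) or 9 (PLX3397+Anakinra J09). It became 7 with median-ratio scaling (2.65% of all genes were higher), 7 without a filter on low values and 0 relative to general neuronal genes (0.191%). Against PLX3397 limma's test called 0 of the 43, where 0.00579% of all genes were higher. An unadjusted p below 0.05 was found for 1159 of the 17267 genes tested and for 2 of the 43. These were Rims3 and Unc13a, both higher with the combination. For Rims3 the interval of that difference ran from 0.02 to 0.32. The interaction asks whether the combination differed from the sum of the single drugs on the log2 scale. Limma called it for 0 of the 43 and for 0 of the 17267 genes tested. Its unadjusted p was below 0.05 for 1 of the 43, Doc2b, and for 1395 of all genes tested. Over the 5 groups together limma's F-test called 39 of the 43, where 51.9% of all genes tested were called. Sv2c (adjusted p = 0.467), Doc2b (0.113), Cplx3 (0.559) and Slc32a1 (0.0637) did not pass it.

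The rises with drug were smaller relative to other neuronal genes. Of the 20 general neuronal genes 6 were higher than in vehicle with PLX3397 (median 0.14) and 12 with PLX3397+Anakinra (median 0.17). On the scale relative to these genes the median of all genes tested moved to -0.12 with PLX3397 and to -0.15 with PLX3397+Anakinra. There limma's test called 0 of the 43 with PLX3397 (0.313% of all genes were higher), and the median of the 43 was 0.03. With PLX3397+Anakinra Stx1a (0.20), Rims3 (0.19), Rab3a (0.13) and Syp (0.09) were higher, where 0.695% of all genes were, and Syn3 (-0.15) was lower. In the same mice all 14 microglia and macrophage markers were lower than in vehicle with PLX3397 (median -1.27) and with PLX3397+Anakinra (-1.56), 5 of 5 red blood cell markers were lower in both arms, and 6 of 7 fibroblast and meningeal markers were higher in both. With Anakinra 0 markers of these 3 lists passed limma's test, although 6 of 7 fibroblast and meningeal markers had an unadjusted p below 0.05, as did 3 of 14 microglia and macrophage and 0 of 5 red blood cell markers. Of the astrocyte markers 0 of 8 passed with Anakinra, and 7 had an unadjusted p below 0.05. Regional neuron markers rose in part under PLX3397+Anakinra. There 6 of 12 cortical pyramidal (median 0.22) and 5 of 10 thalamic markers (0.31) were higher than in vehicle. Of the striatal markers 1 of 10 (0.21) was higher, as was 1 of 10 inhibitory neuron markers (0.14). Of 10 hippocampal markers (0.22) 2 were higher and 1 was lower. With PLX3397 alone 2 of 12 cortical pyramidal (0.10) and 1 of 10 thalamic markers (0.19) were higher. So were 0 of 10 striatal (0.04), 1 of 10 hippocampal (0.05) and 1 of 10 inhibitory neuron markers (0.08). The part of these shifts in the rises of the vesicle genes was not tested.

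The 43 genes varied together over the mice to different degrees. As a description over 24 libraries, which share the composition of the tissue, Pearson's r of a gene with the mean of the other members was highest for Nsf (0.98) and Syp (0.98) and lowest for Cplx3 (0.06) and Sv2c (0.37). Slc17a6 (0.56), Doc2b (0.59) and Syt4 (0.66) were also at the low end over all libraries. There r also takes in the difference between sham and TBI. Among the 20 mice with TBI alone, r was 0.95 for Nsf, -0.12 for Cplx3 and 0.67 for Sv2c. In these mice Slc17a6 had 0.43, Doc2b 0.79 and Syt4 0.49, and Vamp1 had 0.47 against 0.86 over all libraries.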

How the data were processed

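RNA of brain tissue, lesioned and surrounding in the mice with TBI, was measured by paired-end RNA-seq in 24 male mice at 5 dpi. The authors trimmed and mapped the reads in CLC Genomics Workbench to mm10 and deposited expression as TPM. The methods add that CLC calls this unit CPM, but only 1.29% to 2.54% of low values per library lay within 0.01 of a whole multiple of the smallest value, so the values are not plain CPM. The deposited TPM sum to 1000000 per library and hold no counts, and depth is therefore unknown. Precision rests on 4 or 5 mice per group.

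Samples were grouped by their labelled treatment, and none was left out. The 17267 genes whose TPM averaged 0.5 or more entered the test. A single limma fit (version 3.58.1, R 4.3.3) on log2(TPM + 1) held all 24 libraries, a mean for each group and a variance trend. Fold changes are on that scale. Benjamini-Hochberg adjusted p below 0.05 made a call. The script was tested on simulated data. Figures were drawn in matplotlib 3.10.9.

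Members, gene lists and the rule for named genes were chosen with earlier results of these data known. The rule gives values per mouse for the gene with the smallest p after injury in each role, the 3 smallest p in each drug comparison, the 3 transporters and the 2 genes with the largest range within a group, and for any gene called against the direction of the others after injury, of which there was none. The alternatives were other pseudocounts, filters and scalings, the groups compared alone, no trend, exact permutation, a replicate block, the study's criteria, the second deposited table and leaving out each mouse. A filtered table with the authors' p and F values was not used. Some genes of the wider presynaptic list are not reported here by name.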

Additional observations from a re-analysis of the deposited data

Results flagged for a closer look

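In 14 measures, the 13 genes with values per mouse and the summed level of the 43 genes, each of the 5 groups was checked for a mouse far from the others. By Dixon's test, 4 of these 70 checks held such a mouse, where chance gives about 1 in 20. Slc32a1 was 205.7 TPM in sham J07, with the next mouse at 176.5 TPM. Sh3gl2 was 323.5 TPM in PLX3397 J01, with the next at 284.2 TPM. Syt1 was 803.9 TPM in PLX3397+Anakinra J17, with the next at 747.4 TPM. Cplx3 was 28.61 TPM in Anakinra J05, with the next at 18.97 TPM.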

How the results depend on the processing

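Counts of the 43 genes that passed the test depended on the scale and the call rule. With the study's criteria (unadjusted p below 0.05, ratio of means above 2, difference above 4 TPM), 0 genes passed in vehicle, PLX3397, Anakinra or PLX3397+Anakinra against sham, in PLX3397 or PLX3397+Anakinra against vehicle, and in PLX3397+Anakinra against Anakinra, since no ratio of means reached 2. Relative to general neuronal genes, PLX3397 against vehicle gave 0, PLX3397+Anakinra against vehicle 5, PLX3397+Anakinra against Anakinra 0, Anakinra against sham 20 (12 lower, 8 higher, where 1.41% of all genes were lower and 82.1% higher), PLX3397+Anakinra against sham 15 (10 lower, 5 higher, where 1.41% were lower and 70.3% higher) and the F-test 20. There PLX3397 against sham gave 15 lower and 9 higher, where 2.19% of all genes were lower and 72.6% higher. On that scale, vehicle minus sham was 0.086 for Slc17a6, 0.18 for Slc32a1, 0.31 for Cplx3 and 0.47 for Sv2c, where log2(TPM + 1) gave values below 0 for the first 3 and 0.00 for Sv2c. With only the groups compared in the fit, PLX3397 against vehicle gave 6. PLX3397+Anakinra against Anakinra gave 7 without a filter, and 7 with median-ratio scaling, where 2.65% of all genes were higher. The exact permutation test without adjustment gave 29 there and 2 for Anakinra against vehicle. Limma's unadjusted p was below 0.05 for 33 and 2 of the 43 in these comparisons. Of the 17267 genes tested it was so for 4816 and 2148. Where no share over all genes stands beside a count of this section, the count describes the 43 genes alone. The cause of these moves was not tested.

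Leaving out each mouse gave 38 to 40 genes for vehicle against sham, 33 to 34 for PLX3397, 39 to 41 for Anakinra and 32 to 35 for PLX3397+Anakinra against sham. It gave 6 to 16 for PLX3397, 0 to 0 for Anakinra and 15 to 30 for PLX3397+Anakinra against vehicle, 2 to 19 for PLX3397+Anakinra against Anakinra, 0 to 0 against PLX3397 and for the interaction, and 37 to 41 for the F-test.

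With the letter B of the vehicle mice dropped, animal numbers J01, J17, J19 and J20 recur. J01, J19 and J20 are found in vehicle and PLX3397, and J17 in vehicle and PLX3397+Anakinra. The deviations of mice numbered J01, J17, J19 and J20 correlated by 0.17, 0.32, -0.13 and -0.07. Not every pair was thus above 0.1, and the numbers were not taken as pairs. The consensus correlation was 0.25. With the replicate block the counts were 40 for vehicle against sham, 19 in place of 14 for PLX3397 and 24 for PLX3397+Anakinra against vehicle. Exact permutation and the study's criteria were not run for the interaction and the F-test, nor the fit of only the groups compared for the F-test. Depth is unknown, so counting error could not be given.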
